A study of Saccharomyces cerevisiae with 10 samples.

Results

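The proteins of the mitochondrial ribosome were followed through the messenger RNA of 2 strains of the budding yeast Saccharomyces cerevisiae. Members were taken by symbol from the table of gene counts: names that start with MRPL, MRPS or RSM and go on with a digit, and MRP followed by digits alone, without MRP8. This gave 65 genes of the 6059 in the table, 37 for the large and 28 for the small subunit, and all 65 passed the filter on low counts. The strains were Z100, adapted by growth under mild heat, and its control XH7. Each was sequenced after 1 h of heat shock at 50 °C (3 libraries of Z100, 2 of XH7) and under the label 30 °C (3 libraries of Z100, 2 of XH7), which makes 10 libraries of poly(A)-selected RNA in 4 groups. For the unheated state the protocol mentions ice water, while the group label reads 30 °C, so the handling of these cells is not settled by the labels. Whether replicates were grown as separate cultures is not said, and p-values cover only the scatter among the libraries at hand, and this may be technical.

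Mitochondria keep a ribosome of their own, which makes the few proteins encoded in mitochondrial DNA, almost all of them core subunits of the respiratory chain and of ATP synthase. Its RNA is transcribed inside the organelle, whereas nearly all of its proteins are encoded in the nucleus, made in the cytosol and imported. About the messenger RNAs of these proteins it is known that many are bound in the 3′ untranslated region by Puf3, an RNA-binding protein of the Pumilio family that affects their stability, translation and localisation. Family names below follow the common nomenclature, in which u or b marks a protein with a bacterial relative, m a protein found in mitochondria alone, L the large and S the small subunit.

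The Puf3-type letters TGTANATA (N is any base) were searched on the coding strand in the 200 bases after each stop codon, because the element is a known feature of many of these messages. It was found behind 64 of the 65 members, 98.5%, against 841 of 5921 nuclear protein-coding genes, 14.2%. In the large subunit all 37 genes had it and in the small subunit 27 of 28. The gene without it was RSM22, whose product is related to methyltransferases and acts in assembly of the small subunit. On the opposite strand of the same windows 12 of 65 members, 18.5%, held the letters, against 13.2% of all genes. The sites of the members with the largest changes in each comparison below are printed 5′ to 3′ on the strand of the gene. Matched letters are in capitals, with 6 flanking bases in lower case on each side. Apart from RSM22, the members not printed here, some of them named below, hold sites too. The printed sequences come from the RefSeq genome, build R64.

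MRPS12, chrXIV:694280-694287, minus strand: acctttTGTAAATAgcaatg
RSM7, chrX:638203-638210, minus strand: cttgccTGTACATAaacaca
MRPL4, chrXII:1015478-1015485, plus strand: ctctccTGTAAATAtatata
MRP20, chrIV:1278510-1278517, plus strand: cacactTGTATATAcggagc
MRPL28, chrIV:1386548-1386555, plus strand: tcctgcTGTAAATAactgat
MRPL28, chrIV:1386604-1386611, plus strand: attataTGTACATAgacata
MRP49, chrXI:133689-133696, minus strand: tgttcaTGTATATAtcaaaa
RSM18, chrV:253897-253904, minus strand: tctgtcTGTAAATAtacaat
MRPL22, chrXIV:303543-303550, minus strand: tgattcTGTAAATAacaact
MRPL32, chrIII:119217-119224, plus strand: taagccTGTATATAgaaact
MRP4, chrVIII:100440-100447, plus strand: taaactTGTACATAtgccca
MRPL20, chrXI:599060-599067, minus strand: caatcgTGTAAATActactc
MRPS9, chrII:536235-536242, plus strand: tattccTGTAAATAaagtta
MRPL3, chrXIII:323065-323072, plus strand: ccatttTGTAGATAgagaac
MRPL3, chrXIII:323100-323107, plus strand: cattctTGTACATAtatata
MRPS16, chrXVI:528892-528899, minus strand: atatgtTGTATATAtgtttt
MRPS16, chrXVI:528851-528858, minus strand: cagactTGTAAATAatacat
RSM23, chrVII:267637-267644, minus strand: ttctcaTGTACATAtaaata
RSM26, chrX:619122-619129, plus strand: atatacTGTAAATAgtttta
RSM19, chrXIV:695035-695042, minus strand: atctagTGTATATAgatttc
RSM19, chrXIV:695007-695014, minus strand: atatcaTGTAAATAagatca
RSM19, chrXIV:694979-694986, minus strand: tcgggcTGTATATAtatata
MRPL10, chrXIV:103086-103093, minus strand: ctcactTGTACATAccttaa

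In all, the members held 78 such sites, and 13 members held more than 1, among them RSM19 with 3. The fifth letter was A in 36 sites, T in 24, C in 17 and G in 1, the first of the MRPL3 sites above. The first base of a site lay 8 to 165 bases behind the stop codon, with a median of 54. A cytosine 2 bases before the site, as in RSM7 and MRPL32, stood in front of 51 of the 78 sites, 65.4%, against 256 of the 920 sites behind all genes, 27.8%. Other parts of the same machinery often held the element: all 14 mitochondrial ribosomal proteins with names outside the rule, 15 of 16 mitochondrial aminoacyl-tRNA enzymes and 7 of 9 mitochondrial translation factors. It stood behind 3 of 38 nuclear respiratory chain genes, 7.89%, and behind 6 of 136 cytosolic ribosomal protein genes, 4.41%. A match describes the letters and does not show binding.

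**Figure D1:**
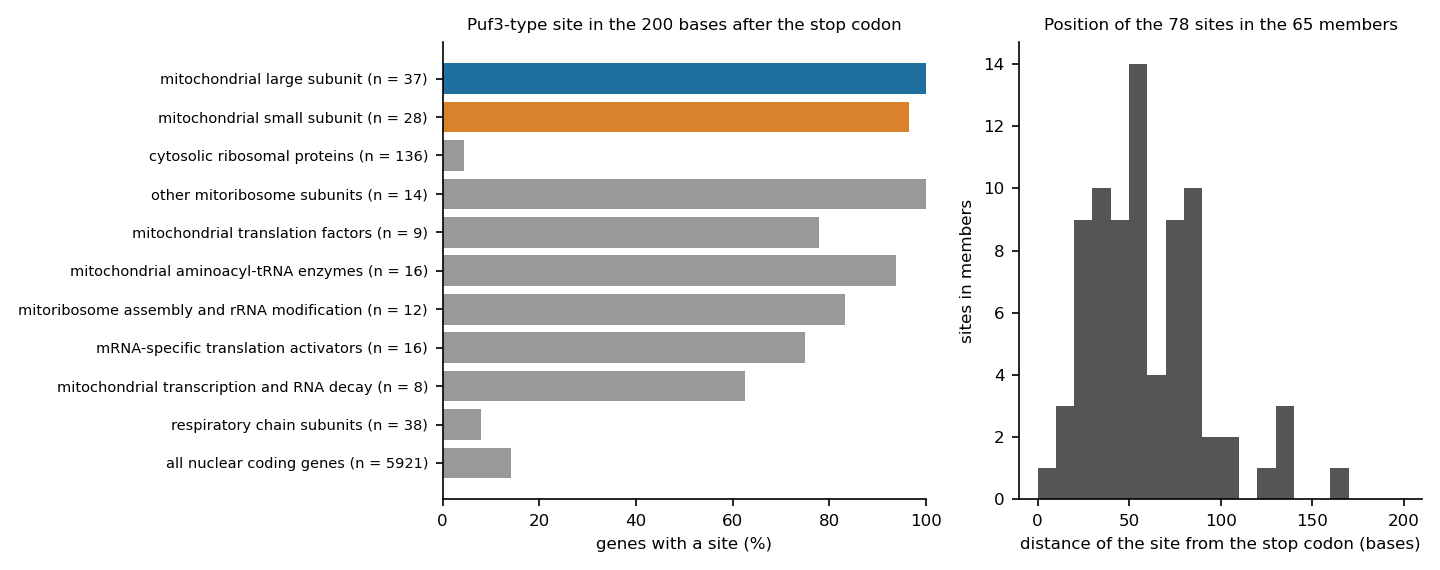
Left, share of genes (%) with TGTANATA in the 200 bases after the stop codon, for the 2 subunits, for other gene lists and for all nuclear coding genes, with the number of genes in parentheses. Right, number of sites in the 65 members by distance from the stop codon in bases, in steps of 10. The members stand at 100% and 96.4%, the cytosolic ribosomal proteins at 4.41% and all genes at 14.2%, and most sites in members lie within 100 bases of the stop codon.

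In promoters, read as the 250 bases before to the 50 bases after the start codon on both strands, no searched motif was more frequent in members by such a margin. CCAAT, the letters bound by the Hap2/3/4/5 activator of respiratory genes, was in 27 of 65 members, 41.5%, against 43.2% of all genes and 81.6% of the respiratory chain genes. The share was 13.8% in members and 11.8% in all genes for GAANNTTC of the heat shock factor Hsf1, and 15.4% against 21.5% for AGGGG of Msn2 and Msn4. Of the letters common near ribosome-building genes, GATGAG was in 16.9% of members and 20.3% of all genes, and AAAAATTT in 7.69% and 14.3%.

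The 10 libraries summed to 51901045 to 81442848 gene counts, and the members had between 85 and 24388 counts in a library. Over all genes, replicate libraries differed by more than counting noise (chi-square per degree of freedom 80.97 to 1410). This was not computed for the members alone. As a share of all counts the members took 0.238% to 0.319% in Z100 and 0.216% to 0.293% in XH7 at 50 °C, and 0.521% to 0.5585% in Z100 and 0.310% to 0.346% in XH7 at 30 °C. The heat shock itself was visible in HSP104, the disaggregase gene, with log2 fold changes of 6.33 ± 0.25 in Z100 and 7.01 ± 0.31 in XH7 (edgeR, adjusted p = 4.7e-08 and 3.7e-07). Replicates of the heated groups spread more: the median over members of the SD of log2 CPM (CPM, counts relative to the TMM-scaled total of a library) was 0.290 in Z100 and 0.394 in XH7 at 50 °C, and 0.133 in Z100 and 0.0653 in XH7 at 30 °C. The ribosomal RNAs of the mitochondrion, which lack poly(A) tails, had 96 to 340 counts (small subunit) and 20 to 280 counts (large subunit) in a library and were not compared. Levels are relative to the other genes of a library. A fall in a gene and a rise in the RNA of the rest cannot be told apart here, nor can fewer cells with a transcript and less of it per cell. In values below, ± after a level is the SD over libraries (n = 3 in Z100, n = 2 in XH7) and ± after a log2 fold change its standard error. Adjusted p-values come from edgeR's quasi-likelihood test over 6015 genes, and a gene is said to rise or fall if its adjusted p was under 0.05.

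Transcript levels per length were spread widely among the members. Over the 4 group means, the deposited FPKM (fragments scaled to gene length and library total) of the members ran from 16.55 to 430.8, a 26-fold range around a median of 74.2 FPKM. The large subunit had a 7.33-fold range around 74.9 FPKM, and the small subunit had a median of 73.6 FPKM. Both ends of the 26-fold range are small subunit members, MRPS12 and RSM22. The next members of that subunit, RSM7 and MRP13, were at 192 and 36.8 FPKM. MRPS12, the uS12m protein of the decoding centre, was at the top with 378 ± 38.3 FPKM in Z100 and 338 ± 57.8 FPKM in XH7 at 50 °C, and with 797 ± 141 FPKM in Z100 and 210 ± 3.63 FPKM in XH7 at 30 °C. RSM7, the uS7m protein of the small subunit head, followed it in the small subunit at 192 FPKM over the group means. In the large subunit MRPL19 (uL11m, at the base of the stalk) and MRPL51 (mL43) led with 186 and 171 FPKM. Each overlaps another annotated gene (YNL184C and YPR099C), as does MRP4 (YHL005C), and the library kit does not keep strand, so reads of the partners cannot be told apart. In the small subunit the 2 lowest were RSM22 at 16.5 FPKM, the lowest of all members, and MRP13 (mS44) at 36.8 FPKM. In the large subunit they were MRPL25 (mL59) at 25.4 FPKM and MRPL32 (bL32m) at 28.9 FPKM.

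The balance of the subunits was close to even. The median FPKM of the large subunit divided by that of the small subunit was 1.01, 0.876 and 0.958 in the Z100 libraries and 1.25 and 0.987 in the XH7 libraries at 50 °C. At 30 °C the ratio was 0.932, 1.04 and 0.994 in Z100 and 0.948 and 0.924 in XH7. Libraries of the 2 strains overlapped at 30 °C and at 50 °C, and the ratio stood furthest from 1 in XH7 50 °C replicate 1. In XH7 both heated libraries were above both unheated ones, while in Z100 heated and unheated libraries overlapped. No test was made of the ratio, and the median fold changes with heat, given below, went the other way in XH7.

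**Figure D2:**
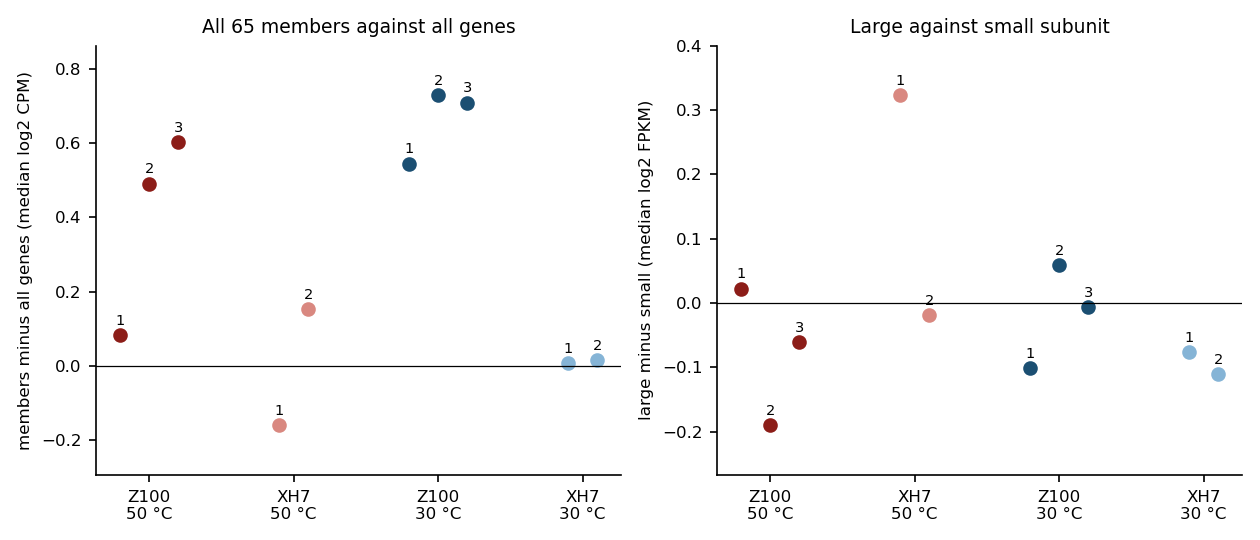
Each point is 1 library, with its replicate number. Left, median log2 CPM of the 65 members minus that of all genes tested; right, median log2 FPKM of the large subunit minus that of the small subunit. On the left the 3 Z100 libraries at 30 °C lie between 0.55 and 0.73 and the 2 XH7 libraries at 30 °C at 0.01 and 0.01. On the right the strains overlap at each temperature, and in XH7 the heated libraries lie above the unheated ones.

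Without heat shock, Z100 had more transcript of the mitochondrial ribosome than XH7. Of the 65 members 29 rose and none fell, 16 of 37 in the large and 13 of 28 in the small subunit, while 14.3% of all genes tested rose and 14.1% fell. The median log2 fold change of the members was 0.55, against -0.08 over all genes. For 60 of 65 members the fold change was above 0, and for 54 members every Z100 library was above both XH7 libraries, which held for 31.8% of all genes. In 2 members every Z100 library was below, against 40.5% of all genes. At an unadjusted p under 0.05, 38 members were higher and 0 lower, and DESeq2 called 35 higher and 0 lower. Shares of all genes by these criteria are not given. In log2 CPM relative to the median of all genes, the members stood at 0.55, 0.73 and 0.71 in the Z100 libraries and at 0.01 in both XH7 libraries.

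**Figure D3:**
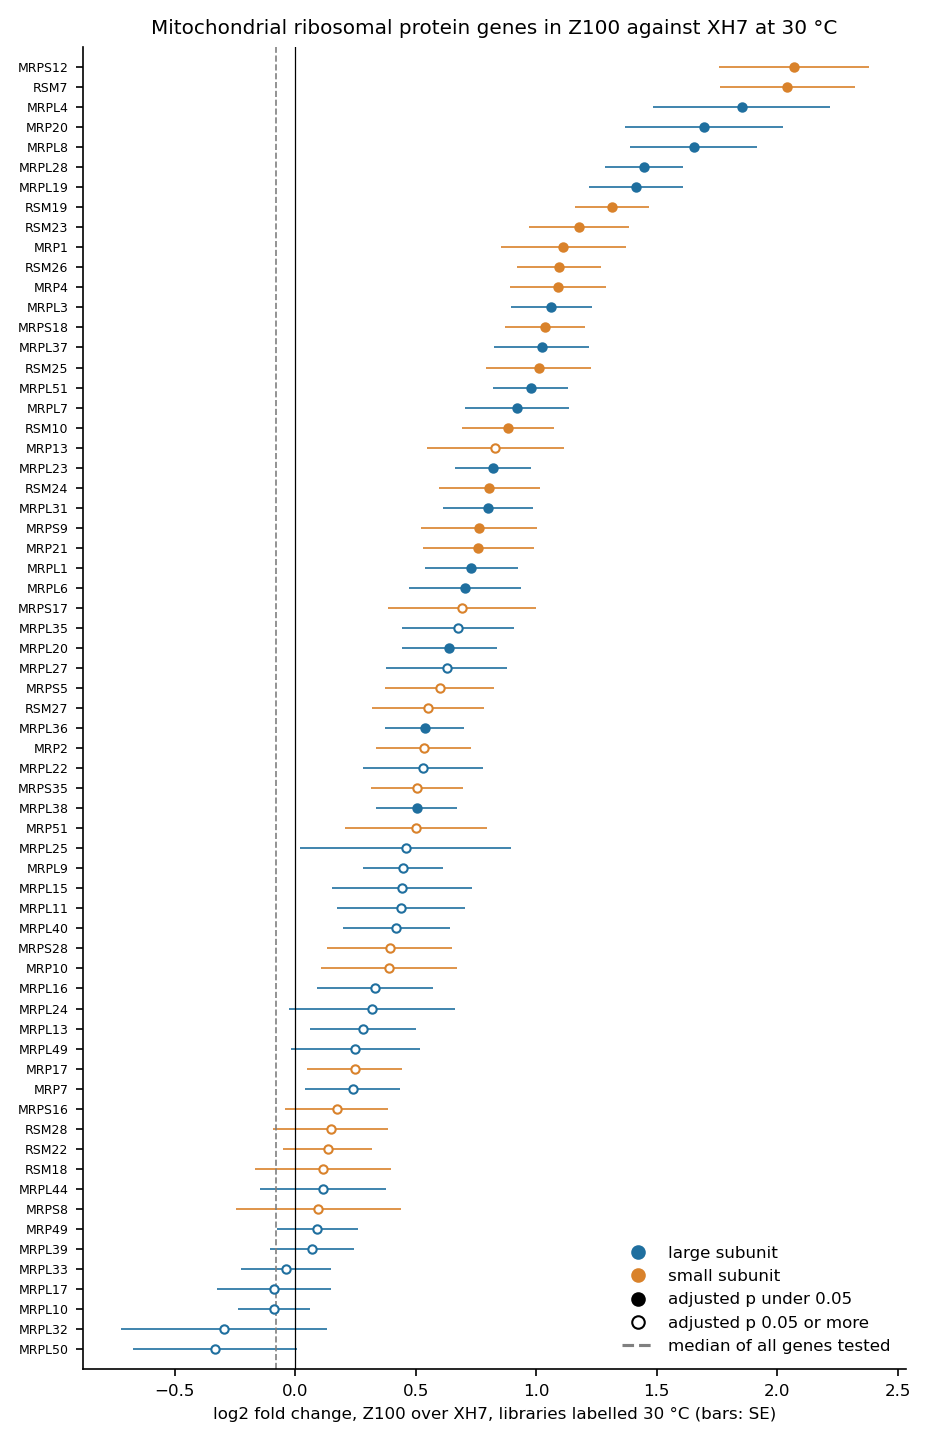
Log2 fold change of each of the 65 members in Z100 over XH7 at 30 °C, ordered by size, with bars for the standard error, filled points for an adjusted p under 0.05 and colour for the subunit. The 29 filled points lie between 0.50 and 2.07, and the dashed line marks the median of all genes at -0.08.

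The largest rise was that of MRPS12 (YNR036C, chromosome XIV 694361 to 694822). It had 234, 394 and 314 CPM in Z100 at 30 °C, against 79.7 and 70.0 CPM in XH7, a log2 fold change of 2.07 ± 0.31 (edgeR, adjusted p = 0.0019). All Z100 libraries were high, and replicate 2 highest. RSM7 (YJR113C, chromosome X 638232 to 638975) had 167, 252 and 206 CPM in Z100 and 54.7 and 46.6 CPM in XH7. Its log2 fold change was 2.04 ± 0.28 (edgeR, adjusted p = 0.0013), again with no overlap and with the same Z100 library on top.

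Next in size came a pair of large subunit proteins that sit around the exit of the peptide tunnel. MRPL4 (uL29m, YLR439W, chromosome XII 1014491 to 1015450) had 85.3, 190 and 106 CPM in Z100, against 36.3 and 34.1 CPM in XH7 (log2 fold change 1.85 ± 0.37, edgeR adjusted p = 0.0069). MRP20 (uL23m, YDR405W, chromosome IV 1277646 to 1278437) had 122, 210 and 141 CPM in Z100, against 51.0 and 46.3 CPM in XH7 (1.70 ± 0.33, edgeR adjusted p = 0.0061). In both genes the groups were apart, and Z100 replicate 2 was far above its fellows. The MRPL4 call ended without XH7 30 °C replicate 1 (edgeR, adjusted p = 0.055) or 2 (0.088), and the MRP20 call without XH7 30 °C replicate 2 (0.086).

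Members of both subunits rose. The median log2 fold change at 30 °C was 0.50 in the large and 0.73 in the small subunit, a difference of -0.22. Read from the medians of FPKM instead, large minus small (log2) was -0.02 in Z100 and -0.09 in XH7, a difference of the other sign. The pooled SD between replicate libraries of this FPKM measure was 0.126, which is not a spread of the -0.22. No test was made of either difference. By origin, 18 of 40 members with bacterial relatives rose (median 0.53), as did 11 of 24 members of mitochondria-specific families (median 0.66). RSM22 is in neither class.

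Some limits apply to the count of 29. Leaving out XH7 30 °C replicate 1 gave 13 and leaving out replicate 2 gave 10, where 1 library stands for the XH7 group. The count was 46 with only the 2 unheated groups in the fit and 17 under scaling by library size alone, and no member fell in any of these. Shares of all genes under these settings are not given, so a general change in calls cannot be told from one in the members. The members lie on 14 chromosomes. The right arm of chromosome III, lower in Z100 as a whole (median log2 fold change -0.51 over 102 genes), holds MRPL32 alone (-0.30 ± 0.43), while the left arm of chromosome VII, higher in Z100 (0.26 over 247 genes), holds RSM23 alone (1.18 ± 0.21).

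With heat shock the median of the members stayed near that of all genes, and the share of members that rose was below the share of all genes in both strains. In Z100, 7 members rose (10.8%) and 23 fell (35.4%), against 33.8% and 36.2% of all genes, and the median log2 fold change was -0.16 (all genes -0.05). Heated and unheated libraries were apart in 8 members with heat higher and 26 with heat lower, against 36.4% and 38.8% of all genes. In XH7, 12 members rose (18.5%) and 15 fell (23.1%), against 31.3% and 32% of all genes, with a median of 0.11 (all genes 0.01). They were apart in 21 members either way, against 40.1% and 41.9% of all genes. The 136 cytosolic ribosomal protein genes behaved otherwise: 133 fell in Z100 (median -2.95) and 135 in XH7 (median -3.10), and 1 rose in each. Their share of all counts was 0.951% to 3.34% in the heated libraries and 21% to 25.6% in the unheated ones.

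**Figure D4:**
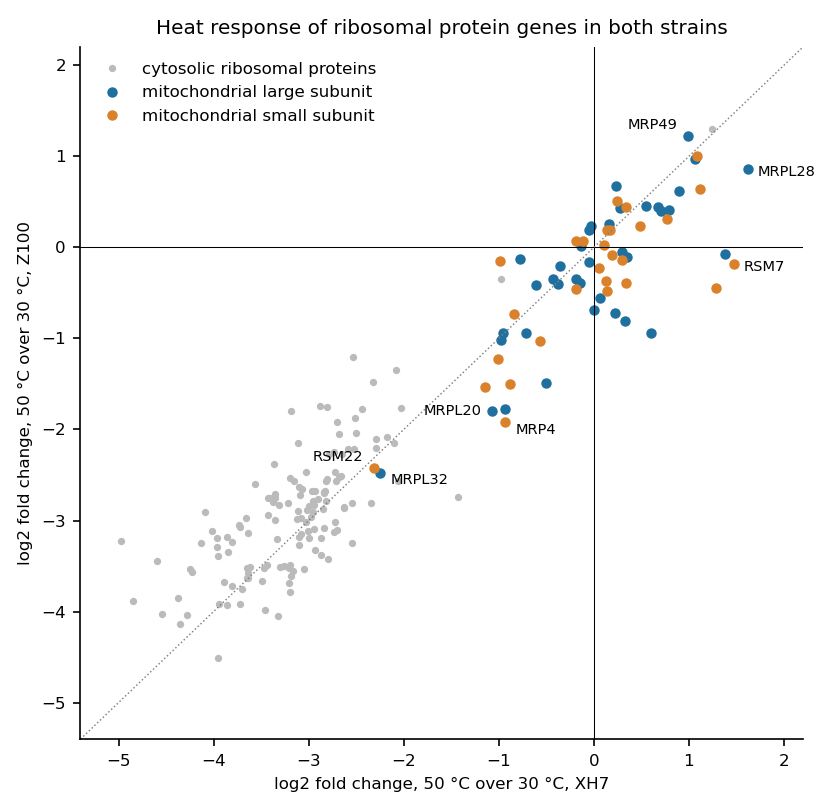
Log2 fold change with heat (50 °C over 30 °C) of each ribosomal protein gene in Z100 (vertical) and XH7 (horizontal); the dotted line marks equal change. Mitochondrial members lie between -2.48 and 1.62 around 0, and the cytosolic genes, in grey, mostly below -1 in both strains, with RSM22 and MRPL32 among them.

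Split by subunit, 6 of 37 large subunit members rose and 13 fell in Z100 (median -0.16), and 1 of 28 small subunit members rose and 10 fell (median -0.17). In XH7, 8 large subunit members rose and 7 fell (median 0.00), and 4 small subunit members rose and 8 fell (median 0.14). Read from the medians of FPKM, large minus small (log2) was 0.15 in heated and -0.09 in unheated XH7, a shift of the other sign. In Z100 it was -0.08 with heat and -0.02 without. No test was made of these differences between subunits. The direction of the median fold changes depends on scaling. Under scaling by library size alone, 1 member rose and 40 fell in Z100 and 4 rose and 21 fell in XH7, with medians of -0.78 and -0.45, and the median of all genes moved to -0.68 and -0.54. The XH7 median was -0.09 without XH7 50 °C replicate 2. The 7 rises in Z100 were 12 without Z100 50 °C replicate 1 and also 12 without XH7 50 °C replicate 2, and 20 without both heated libraries numbered 1, in which the members were lowest relative to all genes (0.08 in Z100, -0.16 in XH7); that last setting was chosen after the data were seen, and in XH7 it gave 23 rises.

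The deepest falls were shared by the strains. MRPL32 (YCR003W, chromosome III 118620 to 119171) encodes bL32m, whose precursor is cleaved by the m-AAA protease of the inner membrane before it joins the ribosome. It had 1.59, 5.54 and 3.604 CPM in heated Z100, against 20.8, 17.96 and 21.3 CPM in unheated Z100, a log2 fold change of -2.48 ± 0.41 (edgeR, adjusted p = 0.00034). In XH7 it had 3.40 and 6.92 CPM with heat and 23.2 and 26.0 CPM without (-2.25 ± 0.50, edgeR adjusted p = 0.0026). No heated library reached the lowest unheated one.

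RSM22 (YKL155C, chromosome XI 159456 to 161342) had 6.85, 10.2 and 9.04 CPM in heated Z100, against 44.3, 46.9 and 48.3 CPM in unheated Z100 (-2.42 ± 0.17, edgeR adjusted p = 1.2e-06). In XH7 its levels were 7.98 and 9.05 CPM with heat and 42.3 and 42.4 CPM without (-2.31 ± 0.21, edgeR adjusted p = 1.1e-05). The strains were close to each other at either temperature, and this is the member that lacks the Puf3-type letters.

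MRPL20 (mL58, YKR085C, chromosome XI 599094 to 599681) had 15.8, 23.8 and 22.8 CPM in heated Z100, against 75.7, 68.3 and 73.5 CPM without heat (-1.80 ± 0.18, edgeR adjusted p = 1.0e-05). In XH7 it had 20.2 and 24.2 CPM with heat, against 49.2 and 44.0 CPM without (-1.07 ± 0.22, edgeR adjusted p = 0.0015). Heated libraries of the strains overlapped, while the unheated Z100 libraries were all above the XH7 ones. MRP4 (uS2m, YHL004W, chromosome VIII 99219 to 100403) was of the same kind, with 46.5, 46.4 and 41.9 CPM in heated and 148, 211 and 148 CPM in unheated Z100 (-1.91 ± 0.18, edgeR adjusted p = 6.6e-06). Heated XH7 had 46.1 and 37.1 CPM of it and unheated XH7 81.2 and 77.4 CPM (-0.93 ± 0.21, edgeR adjusted p = 0.0033). MRPS9 (uS9m, YBR146W, chromosome II 535260 to 536096), among the 4 deepest falls in XH7, had 31.0 and 35.4 CPM with heat and 72.3 and 74.6 CPM without (-1.15 ± 0.26, edgeR adjusted p = 0.0032).

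Other members went the opposite way. MRPL28 (mL40, YDR462W, chromosome IV 1386073 to 1386516), had 109, 94.8 and 104 CPM in heated and 49.1, 61.5 and 59.4 CPM in unheated Z100 (0.86 ± 0.14, edgeR adjusted p = 0.00029). In XH7, where its rise was the largest of the members, it had 62.1 and 65.3 CPM with heat, against 22.0 and 19.5 CPM without (1.62 ± 0.17, edgeR adjusted p = 2.9e-05). None of the 4 groups overlapped, although heated XH7 and unheated Z100 lay close together. MRP49 (mL61, YKL167C, chromosome XI 133721 to 134134) had 42.7, 54.7 and 58.8 CPM in heated and 21.4, 24.0 and 21.2 CPM in unheated Z100 (1.23 ± 0.15, edgeR adjusted p = 4.6e-05), the largest rise in that strain, and rose by 0.99 ± 0.19 in XH7.

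Behind MRPL28, the larger rises in XH7 were those of RSM7 (1.47 ± 0.29), MRP20 (1.38 ± 0.34) and MRPS12 (1.28 ± 0.32), which were also among the members furthest below Z100 without heat. MRP20 had 186, 133 and 130 CPM in heated Z100, against 122, 210 and 141 CPM in unheated Z100 (-0.08 ± 0.28, edgeR adjusted p = 0.81), with overlap. In XH7 it had 165 and 87.8 CPM with heat, against 51.0 and 46.3 CPM without (edgeR, adjusted p = 0.0055), and the groups did not overlap.

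RSM18 (bS18m) and MRPL22 (uL22m, which lines the peptide tunnel) rose in Z100 by 1.01 ± 0.26 and 0.97 ± 0.22 and in XH7 by 1.08 ± 0.31 and 1.06 ± 0.27 (edgeR, adjusted p = 0.0026 to 0.012). In Z100 the calls of RSM18, MRPL22 and MRPL28 ended under scaling by library size alone (edgeR, adjusted p = 0.32, 0.31 and 0.23). MRPL51, MRPL1 (uL1m) and MRP7 (bL27m) completed the 7 members that rose in both strains, so that all 7 rises of Z100 were among the 12 of XH7. Of the falls, 13 were shared, which is 13 of 23 in Z100 and 13 of 15 in XH7. No member rose in one strain and fell in the other. Shared and opposite calls were not counted over all genes, so these counts are not read as particular to the members. Across the 65 members heat fold changes in Z100 and XH7, taken from separate libraries, correlated with r = 0.791 (Pearson) and rho = 0.725 (Spearman), against 0.904 and 0.890 across all 6015 genes. Genes of a library share its depth and scaling, so this is a description.

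**Figure D5:**
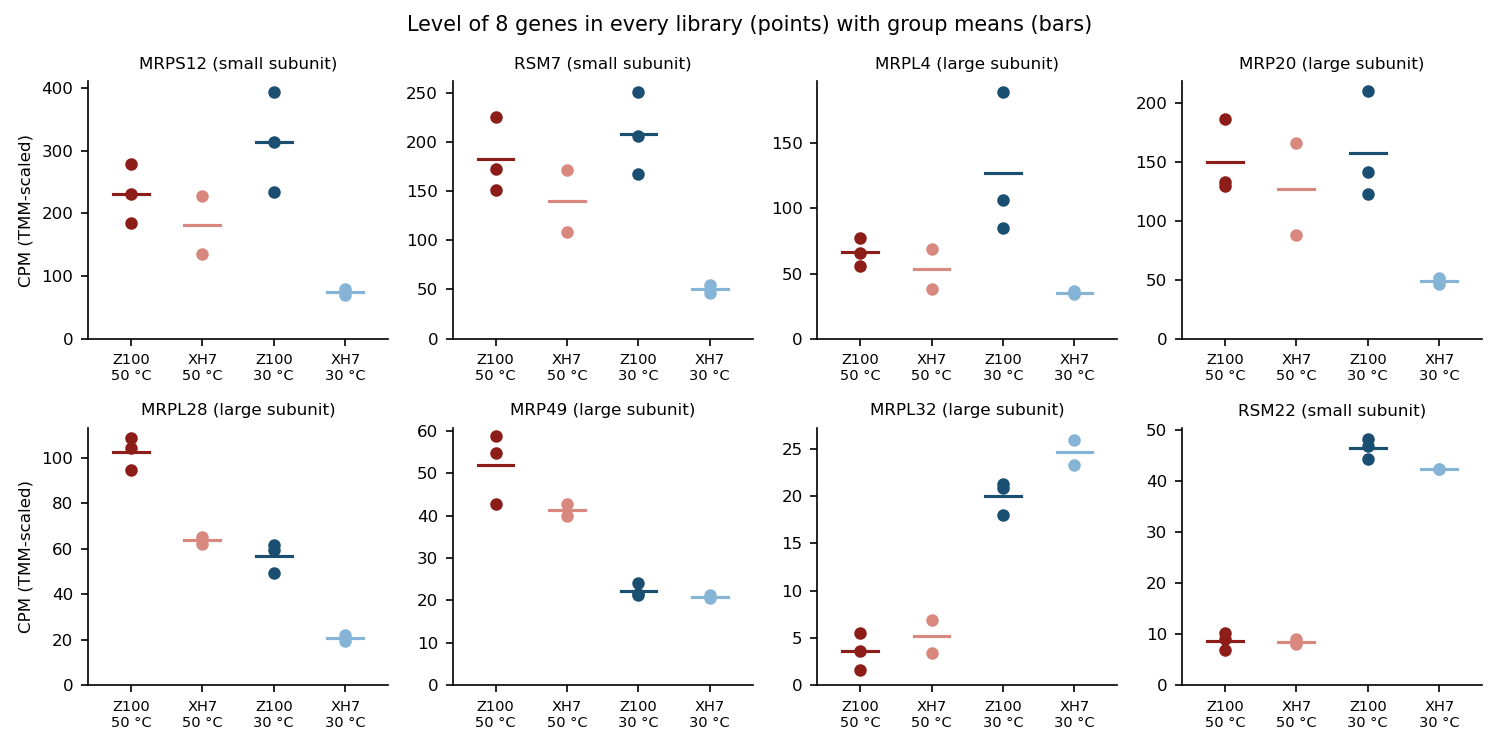
Level in CPM (TMM-scaled) of 8 members in every library; points are libraries, bars are group means, and each axis starts at 0. In MRPS12, RSM7, MRPL4 and MRP20 the XH7 libraries at 30 °C are lowest, while MRPL32 and RSM22 are low in all heated libraries and MRP49 high in them. MRPL28 is higher with heat within each strain, and its heated XH7 libraries lie close to unheated Z100.

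Between the heated strains the difference was smaller. At 50 °C, 6 members were higher in Z100 and 1 was lower, against 4.02% and 4.94% of all genes, with a median log2 fold change of 0.38 (all genes -0.01). The groups were apart in 19 members with Z100 higher and in 1 with Z100 lower, against 18% and 18.4% of all genes. The 6 were 2 large and 4 small subunit members, and the median was 0.36 in the large and 0.38 in the small subunit. Relative to all genes, the members stood at 0.08, 0.49 and 0.60 (median log2 CPM) in Z100 and at -0.16 and 0.15 in XH7, so the strains overlapped.

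MRPS16 (bS16m, YPL013C, chromosome XVI 528985 to 529350) had the largest difference, with 29.9, 44.7 and 44.8 CPM in Z100 and 16.8 and 22.8 CPM in XH7 (1.01 ± 0.22, edgeR adjusted p = 0.026). RSM23 (mS29, YGL129C, chromosome VII 267723 to 269075) had 63.9, 76.1 and 83.7 CPM in Z100, against 34.1 and 45.9 CPM in XH7 (0.90 ± 0.21, edgeR adjusted p = 0.029). RSM26 (mS42, YJR101W) and RSM19 (uS19m, YNR037C, the chromosomal neighbour of MRPS12) were higher by 0.82 ± 0.17 and 0.69 ± 0.15 (edgeR, adjusted p = 0.023 and 0.025). In these 4 genes the libraries of the strains did not overlap. RSM23, RSM26 and RSM19 had been higher in Z100 without heat as well, with log2 fold changes of 1.18, 1.09 and 1.31, and MRPS16 had not been called there (0.17 ± 0.21, edgeR adjusted p = 0.56).

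MRPL10 (uL15m, YNL284C, chromosome XIV 103134 to 104102) was the member lower in heated Z100. It had 31.3, 25.8 and 32.2 CPM in Z100, against 49.9 and 47.7 CPM in XH7 (-0.71 ± 0.15, edgeR adjusted p = 0.022), while the unheated strains overlapped at 45.9, 41.7 and 44.1 CPM in Z100 and 48.0 and 45.4 CPM in XH7. Of the 6 members higher at 50 °C 5 were among the 29 of 30 °C, which is 5 of 6 and 5 of 29. The same overlap was not counted over all genes. Across the 65 members the strain differences at 50 °C and 30 °C, taken from separate libraries, correlated with r = 0.324 and rho = 0.323, against 0.335 and 0.349 across all genes.

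The calls at 50 °C were not stable. The 6 higher members became 0 without XH7 30 °C replicate 1 or 2 or Z100 50 °C replicate 3, 1 without XH7 50 °C replicate 1 or Z100 30 °C replicate 3, and 16 without XH7 50 °C replicate 2, without which the members' median was 0.61. Under scaling by library size alone none was higher, and with only the heated groups in the fit none was called. With the replicate number as a block, the calls of MRPS16, RSM23 and RSM19 ended. The MRPL10 call ended without either XH7 30 °C library, without XH7 50 °C replicate 1 and without Z100 50 °C replicate 3 (edgeR, adjusted p up to 0.059).

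A test of the strains' heat responses against each other called 3 members, all with a lower response in Z100, and none with a higher one. Of all genes 2.64% were called lower and 1.63% higher. At an unadjusted p under 0.05 there were 14 members lower and 1 higher, and DESeq2 called 12 lower and 0 higher. Shares of all genes by these criteria are not given, so these counts are not read as particular to the members. With the replicate number as a block in the model, the 3 calls ended. The median difference of the members was -0.24 (all genes 0.05), -0.23 in the large and -0.27 in the small subunit. For MRPS12 the heat log2 fold change was -0.44 ± 0.26 in Z100 and 1.28 ± 0.32 in XH7, a difference of -1.72 ± 0.41 (edgeR, adjusted p = 0.047). Its CPM was 278, 184 and 230 in heated Z100 and 228 and 135 in heated XH7, so the heated strains overlapped and the groups that stood apart were the unheated ones. RSM7 was alike, at -0.19 ± 0.23 in Z100 and 1.47 ± 0.29 in XH7, a difference of -1.66 ± 0.37 (edgeR, adjusted p = 0.037).

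MRPL3 (mL44, YMR024W, chromosome XIII 321875 to 323047) fell in both strains, to 44.3, 42.3 and 39.1 CPM in heated Z100, against 108, 126 and 118 CPM in unheated Z100. In XH7 it fell to 45.1 and 34.1 CPM, against 55.8 and 56.8 CPM. The log2 fold changes were -1.49 ± 0.15 and -0.51 ± 0.18, a difference of -0.98 ± 0.23 (edgeR, adjusted p = 0.043). Here too only the unheated levels separated the strains. Each of these 3 calls ended without any 1 of 8 libraries, namely each library other than XH7 50 °C replicate 2 and Z100 50 °C replicate 1 (edgeR, adjusted p up to 0.25), and 10 members were lower without XH7 50 °C replicate 2, where the median of the members was 0.02.

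The rest of the mitochondrial translation machinery was read from lists drawn from general knowledge of yeast genes. At 30 °C, 9 of the 14 mitochondrial ribosomal proteins with other names rose in Z100 (median 0.99). Among them was MNP1, the bL12m protein of the stalk, with 241, 239 and 240 CPM in Z100 and 68.1 and 65.4 CPM in XH7 (1.85 ± 0.16, edgeR adjusted p = 0.00014). RML2 (uL2m) and MHR1 (mL67, also known for its part in recombination of mitochondrial DNA) were at 1.35 ± 0.17 and 1.30 ± 0.17. Translation factors rose in 6 of 9 cases (median 0.71). TUF1, the elongation factor that brings aminoacyl-tRNA to the ribosome, had 608, 775 and 657 CPM in Z100, against 170 and 147 CPM in XH7 (2.10 ± 0.23, edgeR adjusted p = 0.00041). In both genes the Z100 libraries stood far above the XH7 ones.

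In the other lists the share that rose ran from 12.5% to 71.1%. At 30 °C, aminoacyl-tRNA enzymes rose in 5 of 16 cases (median 0.40), led by the lysine enzyme MSK1 at 1.52 ± 0.22, and genes of ribosome assembly and ribosomal RNA modification in 5 of 12 (0.47), led by MAM33 at 1.82 ± 0.19. Translation activators of single mitochondrial messages rose in 4 of 16 cases (0.22), and genes of mitochondrial transcription and RNA decay in 1 of 8 (0.13). RPO41, the mitochondrial RNA polymerase gene, was at 0.36 ± 0.20 (edgeR, adjusted p = 0.19). Nuclear genes of the respiratory chain, which make the partners of the proteins translated in mitochondria, rose in 27 of 38 cases (1.09). These counts rest on both XH7 30 °C libraries: without replicate 1 or 2, 2 translation factors rose in each case, and without replicate 2, 5 of the 14 other ribosomal proteins and 16 respiratory chain genes did. For the cytosolic ribosome, 1 of 136 genes rose and 4 fell, with a median of -0.25.

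With heat, other mitochondrial ribosomal proteins rose in 2 of 14 cases and fell in 5 in Z100, and rose in 6 and fell in 1 in XH7. Of the 9 translation factors, 4 rose and 3 fell in Z100, and 6 rose and 1 fell in XH7. MEF2, a factor that splits ribosomes after translation, rose by 2.63 ± 0.15 in Z100 and 2.88 ± 0.19 in XH7, and the initiation factor gene IFM1 by 1.97 ± 0.14 and 2.04 ± 0.17, while the release factor gene MRF1 fell by 2.65 and 2.61 on the log2 scale (edgeR, adjusted p = 3.2e-07 to 7.5e-06). TUF1 fell in Z100 and rose in XH7. It had 483, 388 and 452 CPM in heated Z100, against 608, 775 and 657 CPM in unheated Z100 (-0.63 ± 0.19, edgeR adjusted p = 0.014), and 348 and 241 CPM in heated XH7, against 170 and 147 CPM in unheated XH7 (0.89 ± 0.24, edgeR adjusted p = 0.0075). The Z100 call ended without replicate 2 of either Z100 group (edgeR, adjusted p up to 0.052), and the XH7 call under scaling by library size alone (0.14) and without XH7 30 °C replicate 2 (0.066). RPO41 rose by 1.02 ± 0.18 in Z100 and 1.35 ± 0.22 in XH7. Of 38 respiratory chain genes, 24 rose and 2 fell in Z100 (median 0.88), and 30 rose in XH7 (median 1.38), so that with heat they and the members, with medians of -0.16 and 0.11, lay apart.

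The genes PUF3 and HAP4, which encode regulators, were measured as well. PUF3 itself was at 0.06 ± 0.21 between the unheated strains (edgeR, adjusted p = 0.85), with 18.8, 24.6 and 18.9 CPM in Z100 and 18.3 and 21.5 CPM in XH7, which overlapped; its sign there turned under scaling by library size alone (-0.093) and without XH7 30 °C replicate 1 (-0.053) or Z100 30 °C replicate 2 (-0.081). With heat it had 34.8, 24.9 and 26.0 CPM in Z100 (0.46 ± 0.19, edgeR adjusted p = 0.049) and 33.9 and 28.7 CPM in XH7 (0.65 ± 0.23, edgeR adjusted p = 0.03), above every unheated library of the strain. Of 23 alternatives, 9 ended the Z100 call and 4 turned its sign (-0.18 under scaling by library size alone), and 8 ended the XH7 call. HAP4, the activating subunit of the Hap complex, had 112, 169 and 110 CPM in unheated Z100 and 190 and 187 CPM in unheated XH7 (-0.53 ± 0.29, edgeR adjusted p = 0.19). It rose with heat in Z100 (1.57 ± 0.27, edgeR adjusted p = 0.00044), and in XH7 it was at 0.24 ± 0.33 (edgeR, adjusted p = 0.55). Among genes that are not members, 776 tested genes held the Puf3-type letters and 5048 did not. At 30 °C, 20.5% of those with the letters rose and 11% fell (median 0.09), against 13.3% and 14.9% of those without (median -0.11). Those with the letters include other genes of mitochondrial translation, among them all 14 other mitochondrial ribosomal proteins, which were not set apart. Of the 64 members with the letters 45.3% rose. Activity of Puf3 was not measured.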

How the data were processed

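RNA of 10 libraries was poly(A)-selected and sequenced on a NovaSeq 6000 after preparation with a kit that does not keep strand, per the labels' protocols. Gene counts as the authors deposited them are raw whole numbers for 6059 genes. They also deposited FPKM, which scale the counts to gene length and library total; the length implied by counts and FPKM varied by a median of 0.0593% between libraries. The aligner and counter were not given in the sources used here. The deposited transcript counts equalled the gene counts in 100% of values and were not used. Genes on empty lines of the tables, and VAR1, the ribosomal protein encoded in mitochondrial DNA, were not analysed here. All 65 members lay at the R64 positions, 61 under the same identifier.

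Counts were tested with edgeR 4.0.16 (R 4.3.3): TMM scaling, the filterByExpr filter by group (6015 genes), and the quasi-likelihood F test in a model of 4 group means over all libraries, with 6 residual and 3.95 prior degrees of freedom and a biological coefficient of variation of 0.238. P-values were adjusted by Benjamini-Hochberg over all genes. The 5 comparisons were heat in each strain, strains at each temperature, and their interaction. No source ties libraries of the same replicate number together. In the only comparison with 3 pairs not every pair deviated together, so no block was used. Between strains at 50 °C same-numbered libraries did deviate together (correlations of 0.635 and 0.529), with too few pairs to tell. With the block, the 50 °C calls of MRPS16, RSM23 and RSM19 and every interaction call among the members ended.

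Members and gene lists were chosen with earlier results of these data known. Named per comparison were up to 4 called members of largest rise and fall with at least 10 CPM in the higher group and no overlap, the 2 highest and 2 lowest in FPKM per subunit, up to 3 called genes of each other list, and RPO41, TUF1, PUF3, HAP4 and HSP104. MRPL1 and MRP7, and the values of named genes in further comparisons, were added with their values in view. Other settings tried were DESeq2 1.42.0, limma-voom (limma 3.58.1), other scalings and filters, the compared groups alone, a replicate block, limma on log2 FPKM with pseudocounts of 1 and 0.1, and each library left out, where a lone library is taken to vary as the other groups do. Figures were drawn with matplotlib 3.10.9 (Python 3.11.15).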

Additional observations from a re-analysis of the deposited data

Results flagged for a closer look

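By the interaction test in edgeR, the heat response of 3 members differed between the strains, with Z100 minus XH7 differences in log2 fold change of -1.72 for MRPS12, -1.66 for RSM7 and -0.98 for MRPL3. Of the 112 genes in the other mitochondrial lists 9 passed the same test with a lower response in Z100 (8.04%) and 0 with a higher one, against 2.64% and 1.63% of all genes tested. For the stalk protein gene MNP1 the difference was -0.92 and for the elongation factor gene TUF1 -1.52. In ribosome assembly and ribosomal RNA modification, the methyltransferase gene MRM1 was at -1.62, MAM33 at -1.54 and AFG3, a subunit of the m-AAA protease that matures the MRPL32 protein, at -1.36. Among respiratory chain genes, the succinate dehydrogenase genes SDH1, SDH4 and SDH2 were at -2.37, -1.51 and -1.19, and the cytochrome oxidase gene COX5A at -1.65. All 12 differences were below 0, as was the median of the members. Leaving out XH7 30 °C replicate 1 or replicate 2 ended the call of each of the 9 list genes. Of 22 alternatives, 12 ended the call of MNP1, 9 those of AFG3 and SDH4, 8 those of TUF1 and SDH2, 4 that of SDH1, 3 that of MRM1 and 2 those of MAM33 and COX5A.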

How the results depend on the processing

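Counts of members in this section stand without the share of all genes under the same setting. A general change in calls therefore cannot be told from one in the members. Leaving out 1 library at a time gave ranges as follows. With heat in Z100, 5 to 12 members rose and 20 to 23 fell, with medians of -0.25 to -0.07 (log2). With heat in XH7, 8 to 17 rose and 10 to 16 fell (-0.09 to 0.15). Between strains at 30 °C, 10 to 39 rose and 0 fell (0.55 to 0.63). At 50 °C, 0 to 16 rose and 0 to 1 fell (0.27 to 0.61). By the interaction, 0 to 1 were higher and 0 to 10 lower (-0.40 to 0.024). Large minus small subunit medians were -0.05 to 0.06 with heat in Z100, -0.14 to -0.05 in XH7, -0.25 to -0.11 at 30 °C, -0.15 to -0.03 at 50 °C and -0.03 to 0.15 in the interaction.

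With library size as the only scaling, 1 member rose and 40 fell with heat in Z100 (median -0.78), and 4 rose in XH7 (-0.45). At 30 °C 17 rose, at 50 °C 0 (median 0.16), and 8 were lower by the interaction. By limma on log2 FPKM with a pseudocount of 1, with or without a filter, 1 rose and 41 fell in Z100 (-0.80), 4 rose and 23 fell in XH7 (-0.45), 18 rose at 30 °C, 0 at 50 °C, and 9 were lower by the interaction. With a pseudocount of 0.1 the same held except for medians of -0.81 and -0.46, 17 rises at 30 °C and 8 in the interaction. FPKM follow the library total, as library size scaling does. The compared groups alone gave 46 rises at 30 °C and neither rises nor falls at 50 °C (0 and 0). DESeq2 called 14 higher at 50 °C and 12 lower by the interaction.

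No source ties libraries of the same replicate number together. Same-numbered libraries deviated with correlations of -0.122, -0.11 and 0.145 (heat in Z100), 0.121 (heat in XH7), -0.107 and -0.145 (30 °C), and 0.635 and 0.529 (50 °C, where 2 pairs are too few to tell). With the replicate number as a block, 10 rose and 23 fell with heat in Z100, 14 and 16 in XH7, 23 rose at 30 °C, 1 rose and 1 fell at 50 °C, and 0 were lower by the interaction.

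An alternative chosen after seeing the data left out both heated libraries numbered 1. It gave 20 rises with heat in Z100, 23 in XH7, 48 at 30 °C, 1 higher member in the interaction, and a large minus small median of -0.16 at 50 °C.

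Of 641 values of named members under alternatives, 552 kept their direction and call, 89 lost the call and none changed sign. They belong to 28 results, each a member in a comparison where it was named because it was called. A stable sign was therefore likely beforehand. Values given for these members in other comparisons, such as MRP20 with heat in Z100, were not included. Signs turned for 3 other named genes. HAP4 with heat in XH7, at 0.24 as reported, was at -0.24 with library size only, -0.41 or -0.42 in FPKM and between -0.30 (without XH7 50 °C replicate 2) and 0.67 (without replicate 1). PUF3 with heat in Z100, at 0.46 as reported (edgeR, adjusted p = 0.049), was at -0.18 with library size only and -0.16 or -0.18 in FPKM. At 30 °C PUF3 was at -0.093 with library size only, -0.075 or -0.081 in FPKM, and between -0.081 (without Z100 30 °C replicate 2) and 0.177 (without XH7 30 °C replicate 2). RPO41 at 50 °C, at 0.026 as reported, was at -0.05 with upper-quartile scaling, -0.18 with library size only, -0.003 with the compared groups alone, -0.026 with the block, -0.18 or -0.19 in FPKM, and between -0.10 (without XH7 50 °C replicate 2) and 0.20 (without replicate 1). For these changes the cause was not tested. With 2 or 3 libraries a group and 6 residual degrees of freedom, small differences were not detectable, above all at 50 °C, where replicates spread most.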
